A study of Mus musculus with 13 samples.

Results

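Muscle of KO mice on the HFSC diet was compared with muscle of KO mice on chow, over every gene that was expressed. The members are 6 of the 13 libraries of the series, chosen by the genotype and diet in their labels: HFSC KO 2, 3 and 4 and chow KO 1, 2 and 3, so n = 3 in each group. Both groups carry the same genotype, miR-181a2b2-/-, which the series describes as a systemic knockout, so the deletion is shared and diet is the labelled difference. The other 7 libraries (3 chow and 4 HFSC, genotype miR-181a2b2flox/flox, written here as flox) entered the fit to help estimate the spread and are given only side by side. The labels do not spell out HFSC, give no age, sex or diet duration, and name no particular muscle. Hindlimb ischemia is mentioned for the series, but no sample says whether an operated or a resting limb was taken. The extraction protocol speaks of white adipose tissue while every source label is skeletal muscle. Nothing states that each library is its own animal, so the p-values measure only the spread between these libraries, which may be technical.

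miR-181a and miR-181b are small RNAs that repress messenger RNAs pairing with their seed, the bases near the 5′ end. Both are made from a pair of clusters in the genome, and the deletion removes one of them. Skeletal muscle mixes slow, oxidative fibres with fast, glycolytic fibres, and between the fibres lie capillaries, fibroblast-like progenitors, macrophages and nerve. A diet can therefore move bulk muscle RNA by changing the fibres, their fuel use, their clock or the cells around them.

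The mature sequences of the deleted cluster are shown because the cluster that remains makes the same RNAs, and the capitals mark the seed, bases 2 to 8.
mmu-miR-181a-5p: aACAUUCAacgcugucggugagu
mmu-miR-181b-5p: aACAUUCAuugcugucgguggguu
They are RefSeq entries on GRCm38.p6, at chr2:38852741-38852763 (Mir181a-2) and chr2:38853845-38853868 (Mir181b-2), both on the plus strand. The same sequences are listed for Mir181a-1 at chr1:137966468-137966490 and Mir181b-1 at chr1:137966650-137966673. The seed ACAUUCA is shared by both miRNAs. Mir181a-2 and Mir181b-2 had 0 reads in all 6 KO libraries, but no flox library had more than 2 reads for either, so these counts do not check the labels.

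Total counts of the 6 libraries ran from 27341234 to 30545641, so depth was alike in both diets. A count of 0 in 1 of them allows up to 3 counts, 0.0983 to 0.129 CPM (counts scaled to a common library size), and such limits cover counting error only. TMM scaling factors, which correct each library for its RNA composition, were 0.834 to 0.960 in chow KO and 0.966 to 1.03 in HFSC KO. In a principal component analysis of the 6 libraries the first component held 66.3% of the variance, with chow KO from -67.5 to -35.9 and HFSC KO from 42.6 to 56.9. The defining markers of skeletal muscle were present throughout: Acta1, the actin of the fast and slow sarcomere, was at 23891.0, 30417.0 and 29361.0 CPM on chow and 23194.0, 25206.0 and 19441.0 CPM on HFSC. None of the 10 liver genes listed as a control passed the filter on low counts, and their summed level was at most 0.345 CPM.

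On HFSC, KO muscle had less RNA of 10 slow sarcomere genes and 7 core clock genes, and more RNA of most collagen, basement membrane and endothelial genes tested. Of 16496 genes tested with edgeR, 4201 passed a Benjamini-Hochberg adjusted p of 0.05, which is 25.5% of those tested. Of these, 2459 (14.9%) were higher on HFSC and 1742 (10.6%) lower. The higher ones moved further, with a median log2 fold change of 1.21 against -0.75 among the lower ones, and 373 were at least 4-fold higher while 129 were at least 4-fold lower. Over all tested genes the median was 0.02. Libraries of the diets did not overlap in 8355 genes (50.6%), 4422 higher (26.8%) and 3933 lower (23.8%), and 4160 of the called genes were among them.

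The higher calls were 58.5% of all calls. With library totals in place of TMM every gene shifted upward by 0.18 in the median, and the share became 69.7% (2407 higher, 1046 lower), so small changes below are relative to the scaling. The number of calls also rested on single libraries. It was 1459 without chow KO 3, 1797 without HFSC KO 4 and 2120 without chow KO 2, and 2839 to 2975 without each of the others. The share that rose was 9.68% of genes under 1 CPM, 20.6% at 1 to 10 CPM, 14.9% at 10 to 100 CPM and 7.18% in the class above that. The share that fell was 4.09%, 9.4%, 13.6% and 17.3% in the same classes.

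The gene lists drawn together below were chosen with earlier results of these data in view, so each is described by its counts. Every count of members that rose or fell is to be read against 14.9% and 10.6% over all genes, and every count of members called against 25.5%. The share called was between 21.9% and 28.6% in the lists of scaffold, fatty acid oxidation, PGC-1 and ERR, cholesterol, branched-chain amino acid, insulin, glycolysis, glycogen, muscle stem cell, atrophy, antioxidant, chemokine, interferon and Hox genes, and such shares, near 25.5%, are not a result about these lists. Only members that passed the filter on low counts were tested, and a member can pass through the diet where it is high.

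**Figure D1:**
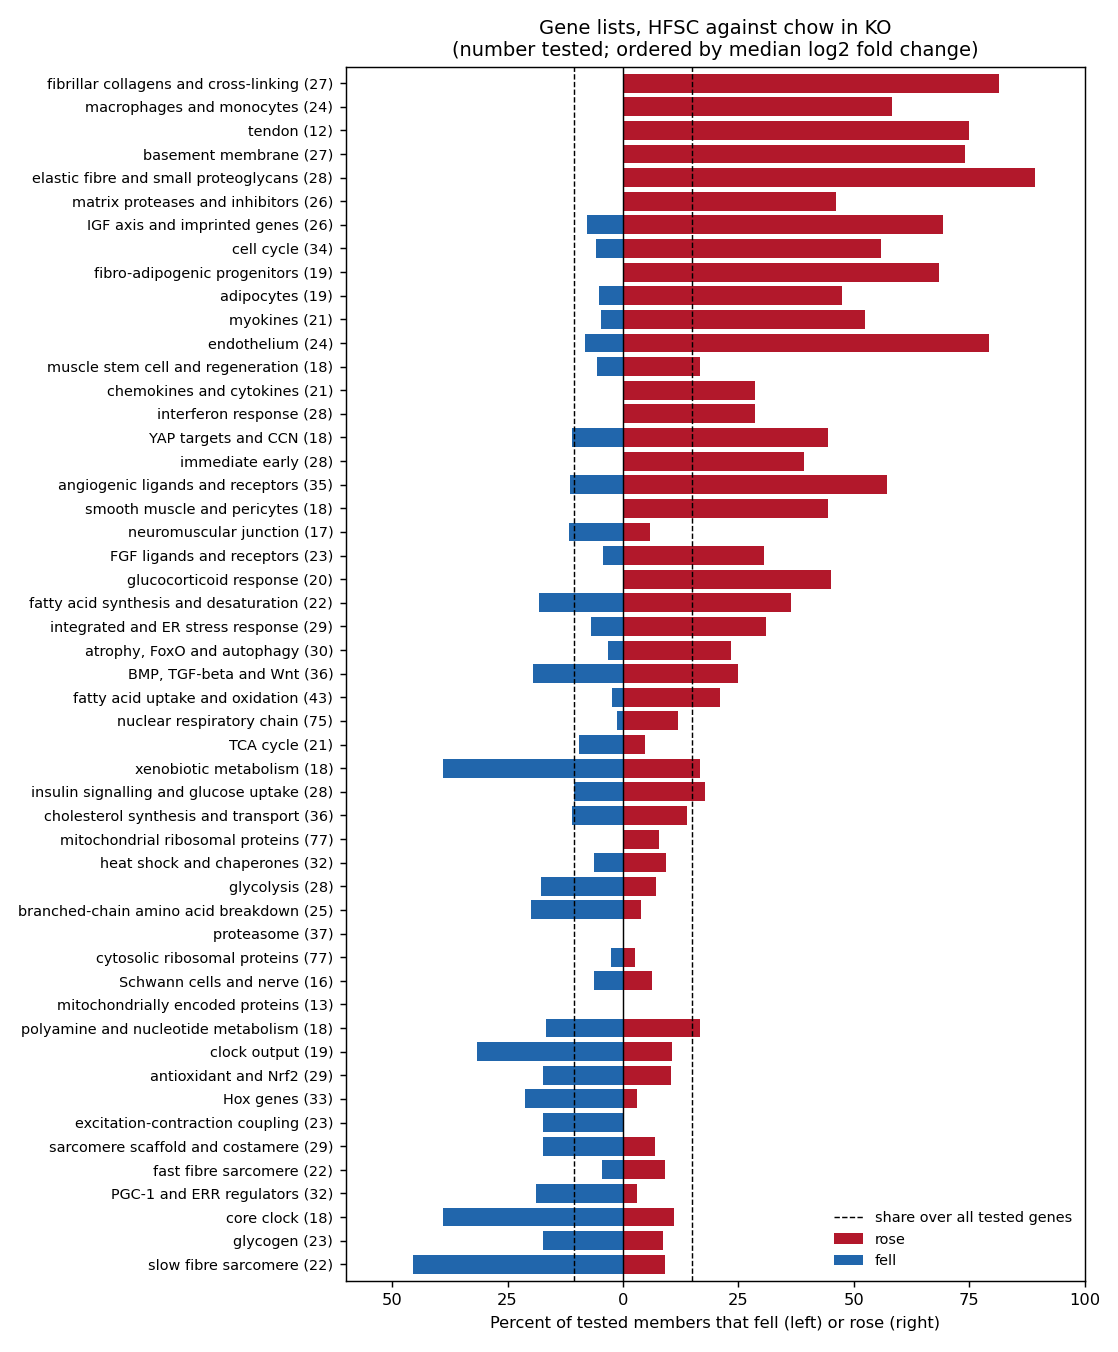
Bars give the percent of tested members of each list that rose (red, right) or fell (blue, left) on HFSC in KO muscle, for the lists with at least 12 tested members, ordered by median log2 fold change. Dashed lines mark the shares over all genes, 14.9% higher and 10.6% lower; elastic fibre genes (25 of 28), fibrillar collagens (22 of 27) and endothelium (19 of 24) reach furthest right, and slow fibre genes (10 of 22) furthest left.

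Many genes of the slow fibre were lower on HFSC. Of 22 slow sarcomere genes tested, 10 fell and 2 rose. The number that fell was 10 or 11 without any 1 KO library, and 1 rose without chow KO 2, chow KO 3, HFSC KO 3 or HFSC KO 4. Myh7, the slow and cardiac myosin heavy chain (ENSMUSG00000053093, chr14:54970684-54994626), was at 3120.9, 3416.7 and 3189.6 CPM in chow KO 1, 2 and 3. In HFSC KO 2, 3 and 4 it was at 157.2, 224.8 and 105.7 CPM. Every HFSC library was below every chow library, a log2 fold change of -4.32 (SE 0.47, adjusted p = 0.000649). Tpm3, the slow tropomyosin, had the smallest adjusted p of all genes. It went from 904.3, 1073.4 and 1021.0 CPM to 96.8, 91.6 and 78.2 CPM, a change of -3.49 (SE 0.21, adjusted p = 9.29e-06). The other parts of the slow thin and thick filaments followed: the log2 fold change was -3.81 for Myl2, -3.53 for Tnnc1, -3.34 for Myh7b, -2.63 for Tnnt1, -2.54 for Myl3 and -2.52 for Tnni1. Atp2a2, the slow calcium pump of the sarcoplasmic reticulum, was at 1672.6, 2017.1 and 1913.2 CPM on chow and at 260.7, 392.1 and 206.5 CPM on HFSC. Myoz2, a calcineurin-binding protein of the slow Z disc, fell by 1.53. All of these calls were kept under every alternative run.

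The summed level of the slow list was 11629.1 to 13156.6 CPM in chow KO and 3966.9 to 5092.1 CPM in HFSC KO. The members did not all move together. Actc1, the cardiac actin that muscle also makes in development and repair, rose: it was at 92.0, 68.6 and 54.8 CPM on chow and 712.5, 810.1 and 307.4 CPM on HFSC. Its log2 fold change was 3.09 (SE 0.58, adjusted p = 0.00489), and its sequence is close to that of other actins, so shared reads cannot be told apart. Outside the list, Mb, myoglobin, the oxygen store of oxidative fibres, was at 1950.9, 2962.5 and 2270.3 CPM on chow and 2001.1, 2755.4 and 2905.1 CPM on HFSC, and did not pass (adjusted p = 0.83). Casq2, the slow calsequestrin, did not pass either (0.12, adjusted p = 0.738). The labels name no muscle, so for the slow fibre genes diet and the piece of muscle taken cannot be told apart.

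Among the adult myosin heavy chains, counted per length of transcript, Myh7 made up 2.35% to 3.29% of the 4 chains in chow KO and 0.145% to 0.261% in HFSC KO. Myh1, the chain of type IIx fibres, made up 4.75% to 6.49% on chow and 11.9% to 23.3% on HFSC. Myh4, the chain of type IIb fibres, was the largest share in every library, 84.8% to 89.0% on chow and 71.8% to 83.4% on HFSC. Myh2, of type IIa fibres, was at 3.87% to 5.70% on chow and 4.54% to 7.11% on HFSC, and its groups overlapped. In CPM, Myh1 rose from 4306.7, 6046.1 and 4753.3 to 7897.2, 14826.0 and 9849.7 (log2 fold change 1.11, SE 0.27, adjusted p = 0.0141). That call was not kept without chow KO 3 (adjusted p = 0.0612), without HFSC KO 3 (0.053) or with the replicate number as a block (0.0587). Neither Myh4 (-0.69, adjusted p = 0.148) nor Myh2 (-0.43, adjusted p = 0.161) passed.

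Of 22 fast sarcomere genes, 2 rose and 1 fell. No member rose without chow KO 3 or without HFSC KO 3, 1 rose without each of the others, and none fell without chow KO 2, chow KO 3, HFSC KO 3 or HFSC KO 4. Mylpf, the fast regulatory light chain, was at 5133.7, 5800.5 and 6176.6 CPM on chow and 9683.3, 8393.9 and 9271.0 CPM on HFSC (0.68, adjusted p = 0.0347), but without any 1 KO library its adjusted p was 0.0562 to 0.102.

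Genes of proteins that hold the sarcomere in register mostly did not pass. Of 29 scaffold and costamere genes 5 fell and 2 rose, but none fell without chow KO 2, without chow KO 3 or without HFSC KO 4. The count of genes that fell was 2 without chow KO 1 or HFSC KO 2 and 3 without HFSC KO 3. Synm, the intermediate filament synemin, which is not in that list, was at 1637.1, 1831.1 and 2018.6 CPM and then 748.4, 565.8 and 618.6 CPM (-1.51, adjusted p = 0.0134), with 0.0517 without chow KO 3. Of the list, Tcap (telethonin, -0.73) and Nrap (-0.82), both Z-disc or junction proteins, were called but lost the call without several libraries (adjusted p up to 0.103 for Tcap without chow KO 3 and 0.119 for Nrap without HFSC KO 2). Xirp1, an actin-binding protein of damaged or growing fibres, and Klhl40, which stabilises thin filaments, rose under every alternative. Xirp1 was at 151.5, 116.8 and 134.7 CPM on chow and 278.8, 761.5 and 331.8 CPM on HFSC (1.77, SE 0.34, adjusted p = 0.00529), with HFSC KO 3 the highest.

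Of 23 genes of excitation-contraction coupling 4 fell and none rose, with 2 that fell without chow KO 1 or 2 and 1 without chow KO 3 or HFSC KO 4. Ryr1, the calcium release channel, lost the most CPM of the called genes whose diets did not overlap. It was at 8325.5, 8801.4 and 8894.6 CPM on chow and 5433.9, 5023.8 and 3725.1 CPM on HFSC (-0.88, adjusted p = 0.0307), and its adjusted p was 0.0972 without HFSC KO 4 and 0.0896 without chow KO 3. Clcn1, the chloride channel that sets resting excitability, fell under every alternative (-0.88, SE 0.21, adjusted p = 0.0121). Mylk4, a myosin light chain kinase counted in the fast sarcomere list, fell by 1.65 (adjusted p = 0.0206), with 0.0717 without chow KO 3. At the neuromuscular junction 1 of 17 genes rose and 2 fell: Utrn (utrophin, 0.82) rose and Rapsn (rapsyn, which clusters acetylcholine receptors, -0.62) fell under every alternative. The other gene that fell was not called without chow KO 1, chow KO 2, HFSC KO 3 or HFSC KO 4.

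Of 18 markers of muscle stem cells and regeneration, 3 rose and 1 fell. The count that rose was 1 without chow KO 2, without chow KO 3 or without HFSC KO 4, and none fell without any 1 library other than HFSC KO 3. Sdc4, a syndecan of stem cells and other cells, rose by 1.03 (adjusted p = 0.00758). The embryonic myosin Myh3 was at 36.6, 17.3 and 15.9 CPM on chow and 23.5, 255.8 and 49.6 CPM on HFSC, and the perinatal Myh8 at 77.4, 74.8 and 26.3 CPM and then 58.9, 501.6 and 67.6 CPM. HFSC KO 3 was the high library for both, and neither passed (adjusted p = 0.0698 and 0.186). Ankrd1, a stress-responsive Z-disc partner, had the same high library (187.9 CPM, with 17.4 and 40.3 CPM in the other HFSC libraries). Its call (2.45, adjusted p = 0.0364) was not kept without HFSC KO 3, where the log2 fold change was 0.95 (adjusted p = 0.265).

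**Figure D2:**
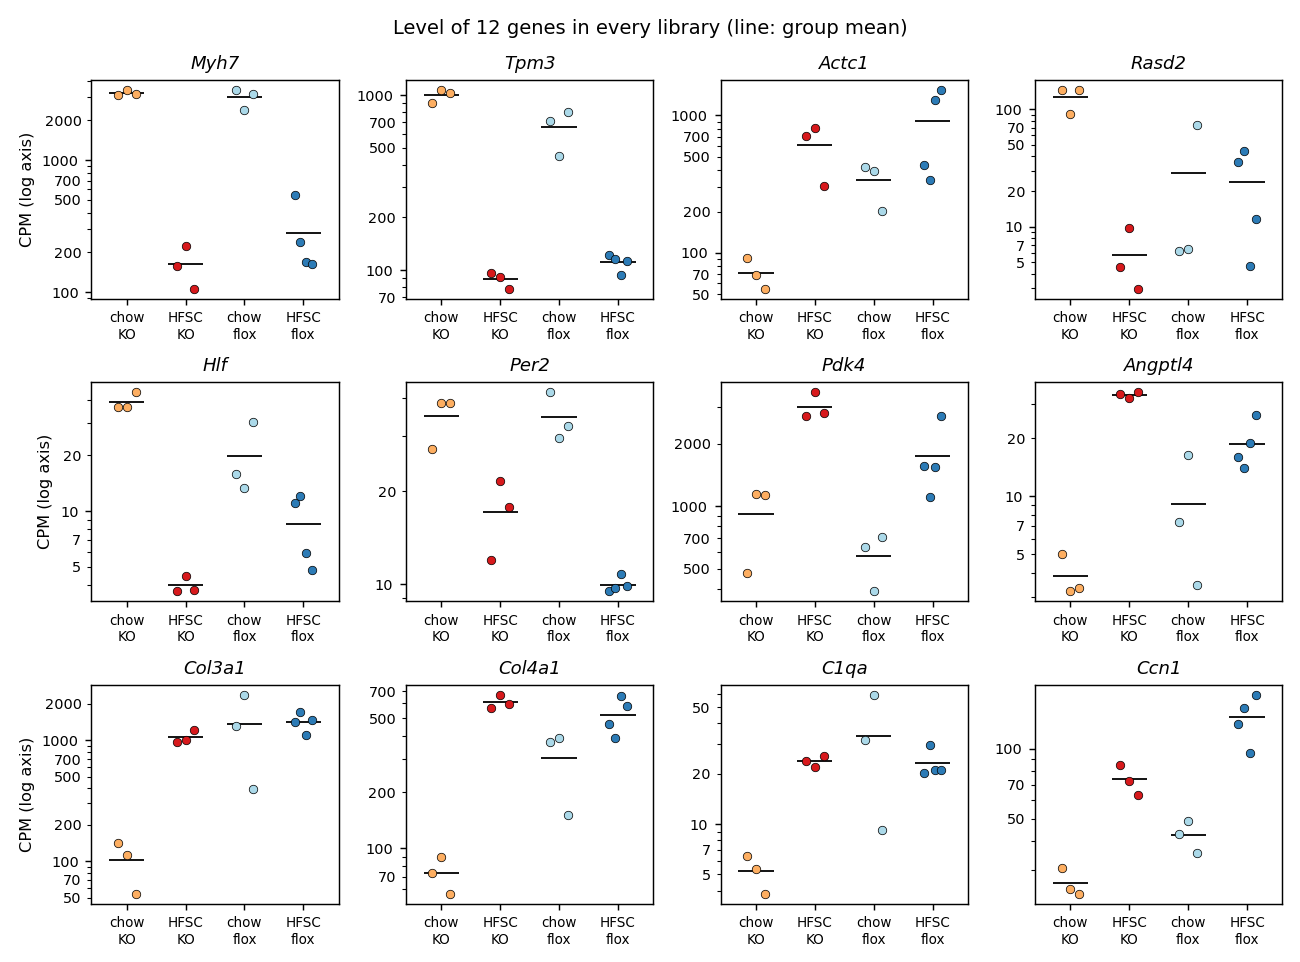
Each panel plots 1 of 12 genes in CPM on a log axis, 1 point per library in the 4 groups, with a line at the group mean. In KO muscle no HFSC library overlaps a chow library in any panel. The flox libraries separate by diet as well for Myh7, Tpm3, Hlf, Per2, Pdk4 and Ccn1, and barely for Col4a1. They overlap for Actc1, Rasd2, Angptl4, Col3a1 and C1qa.

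Clock genes changed by name and in opposite directions. The clock is a loop in which Arntl (Bmal1) with Clock or Npas2 drives Per and Cry genes, whose products repress it, and a second arm of ROR and REV-ERB receptors acts on Arntl. Of 18 core clock genes 7 fell and 2 rose, where 10.6% and 14.9% of all genes did. Without any 1 KO library 5 or 6 fell, and 1 rose without chow KO 2, chow KO 3 or HFSC KO 2. Per2 was at 27.4, 38.6 and 38.5 CPM on chow and 12, 21.5 and 17.7 CPM on HFSC (-1.03, SE 0.20, adjusted p = 0.0056). Per3 was at 69.4, 64.3 and 53.0 CPM and then 29.9, 32.9 and 28.6 CPM (-1.03, adjusted p = 0.0149), with 0.0531 without HFSC KO 4 and 0.0713 with library totals. Every HFSC library was below every chow library for both repressors. Cry2 (-0.78) and Bhlhe41, a repressor of the loop (-1.17, adjusted p = 0.00203), fell under every alternative.

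On the activating side, Npas2 was barely read on chow (0.307, 0.280 and 0.0 CPM) and was at 2.76, 2.33 and 1.86 CPM on HFSC (3.49, SE 0.56, adjusted p = 0.00276). Arntl was at 9.62, 7.59 and 6.38 CPM and then 21.4, 16.6 and 13.7 CPM (1.13, adjusted p = 0.0155). Its adjusted p was 0.0717 without chow KO 3, 0.0536 without chow KO 2 and 0.0517 without HFSC KO 2. Clock (0.36, adjusted p = 0.0793), Nr1d1 (REV-ERB alpha, 0.25, adjusted p = 0.478) and Per1 (0.42, adjusted p = 0.415) did not pass. The labels give no time of day of sampling, so diet and time of collection cannot be told apart for these genes.

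Of 19 clock output genes 6 fell and 2 rose. Hlf, a PAR bZIP factor that reads out the clock, showed the clearest separation: 36.6, 36.4 and 43.9 CPM on chow and 3.69, 4.46 and 3.75 CPM on HFSC (-3.30, SE 0.37, adjusted p = 0.000649). Its relatives Dbp (-1.28, adjusted p = 0.0104) and Tef (-0.67, adjusted p = 0.0185) fell as well, Tef with 0.072 without chow KO 3. The number of output genes that fell was 2 without chow KO 2, chow KO 3 or HFSC KO 4 and 3 without HFSC KO 2 or 3.

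**Figure D3:**
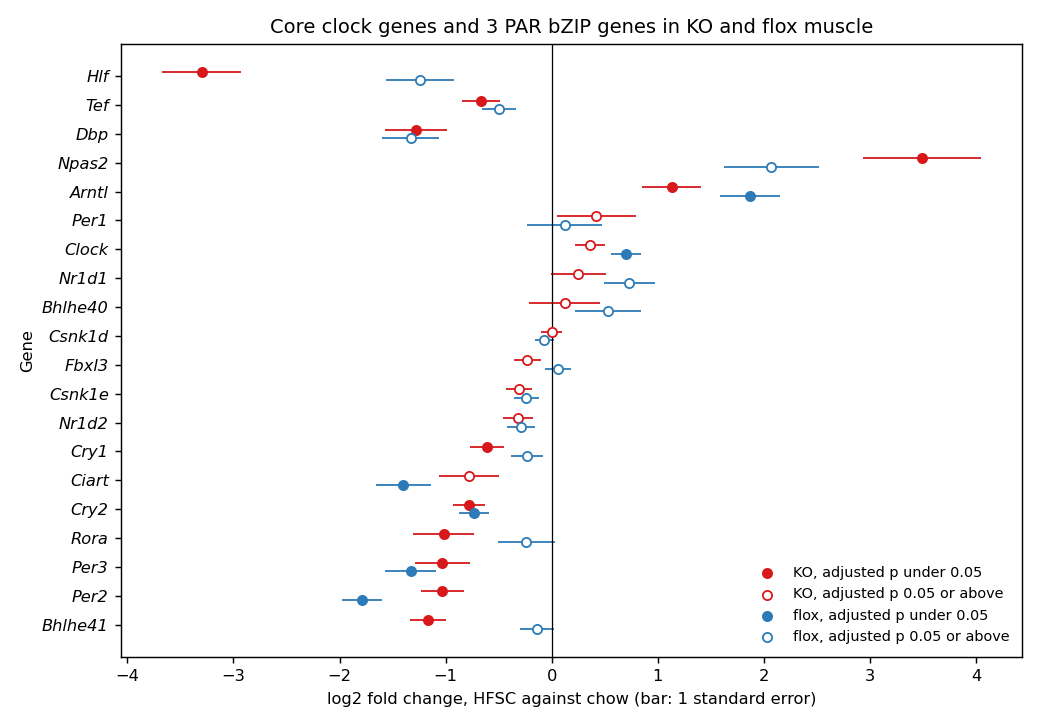
The log2 fold change of HFSC against chow is plotted for 17 core clock genes and the PAR bZIP genes Hlf, Tef and Dbp, in KO (red) and flox (blue), with bars of 1 standard error; filled points have an adjusted p under 0.05. Npas2 and Arntl lie right of 0 and Per2, Per3 and Cry2 left of 0 in both genotypes, and Hlf has its lowest value in KO.

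The promoters of 3 called clock genes are shown because each holds, in the window around the start site that the table gives, 1 kind of clock motif, given in capitals: the D-box TTATGTAA in Per3, the E-box CACGTG in Bhlhe41 and the core TAGGTCA of the ROR element in Arntl. They are from RefSeq, build GRCm38.p6, written 5′ to 3′ on the strand of the gene.
Per3, chr4:151044616-151044915, minus strand: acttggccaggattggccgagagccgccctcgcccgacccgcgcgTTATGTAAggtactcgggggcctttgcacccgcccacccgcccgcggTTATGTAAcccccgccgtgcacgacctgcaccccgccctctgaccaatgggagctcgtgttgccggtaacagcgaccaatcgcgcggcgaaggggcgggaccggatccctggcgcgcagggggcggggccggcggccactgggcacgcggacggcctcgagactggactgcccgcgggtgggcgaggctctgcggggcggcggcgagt
Bhlhe41, chr6:145865371-145865670, minus strand: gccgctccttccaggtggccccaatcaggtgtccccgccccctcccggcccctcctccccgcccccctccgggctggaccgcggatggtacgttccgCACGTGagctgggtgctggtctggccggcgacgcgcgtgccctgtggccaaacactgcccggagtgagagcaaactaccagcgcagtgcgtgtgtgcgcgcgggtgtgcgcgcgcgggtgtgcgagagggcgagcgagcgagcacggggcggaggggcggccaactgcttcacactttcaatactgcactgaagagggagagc
Arntl, chr7:113207261-113207560, plus strand: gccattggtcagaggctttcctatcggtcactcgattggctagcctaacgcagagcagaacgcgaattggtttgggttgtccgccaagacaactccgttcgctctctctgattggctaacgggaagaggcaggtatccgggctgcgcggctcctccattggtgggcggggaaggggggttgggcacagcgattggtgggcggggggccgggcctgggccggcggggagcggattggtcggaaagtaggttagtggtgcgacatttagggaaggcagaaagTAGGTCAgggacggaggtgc
Both strands were searched. CACGTG occurs in 7.15% of 32851 promoters of this length, TTATGTAA in 0.938% and TAGGTCA in 2.61%. The other D-box form searched, TTACGTAA, occurs in 0.119% and in none of the called core clock promoters. Of the 9 called core clock genes 7 had a promoter in the table, and among them Cry1 also held CACGTG, so CACGTG stood in 2 of 7 and TTATGTAA and TAGGTCA in 1 of 7 each. A match describes letters in this window and is not a binding site.

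Genes that direct fuel use and lipid uptake changed at several named steps. Pdk4 (chr6:5483351-5496309) encodes a kinase that restrains pyruvate oxidation. It was at 477.2, 1141.0 and 1128.1 CPM on chow and 2709.2, 3545.3 and 2811.2 CPM on HFSC (1.72, SE 0.38, adjusted p = 0.00916), with chow KO 1 the lowest library. Angptl4, a secreted inhibitor of lipoprotein lipase, was at 4.98, 3.20 and 3.32 CPM and then 33.9, 32.3 and 34.7 CPM (3.13, SE 0.44, adjusted p = 0.00172). Lpl, the lipase itself, was lower: 1125.7, 1145.0 and 1102.5 CPM on chow and 591.0, 476.6 and 760.9 CPM on HFSC (-0.88, adjusted p = 0.00918). These calls were kept under every alternative, and no library of one diet overlapped the other.

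In the list of 43 genes for taking up and oxidizing fatty acids, 9 rose and 1 fell, 3 rose without chow KO 3 and 5 without HFSC KO 4, and 23 rose with library totals. The list's median was 0.28. Fabp4, a fatty acid carrier of capillaries, adipocytes and macrophages, rose by 1.44 (adjusted p = 0.0032). Plin5, which coats lipid droplets in oxidative tissue, rose by 1.27 (adjusted p = 0.0102, and 0.0517 without chow KO 3), and Cpt1a, a gate of mitochondrial fat import, by 0.86 (adjusted p = 0.0122, and 0.0583 without chow KO 3). Ucp3, a common readout of fat use in muscle, was at 99.8, 305.6 and 274.8 CPM on chow and 326.1, 280.4 and 302.7 CPM on HFSC and did not pass (adjusted p = 0.447). Of the 32 PGC-1 and ERR regulators 6 fell and 1 rose, with 1 that fell without chow KO 2, chow KO 3 or HFSC KO 4 and 3 without chow KO 1 or HFSC KO 2. The gene that rose, Ppargc1a, the PGC-1 alpha coactivator, had HFSC KO 3 as its high library (173.6 CPM against 58.7 and 104.6 CPM), and without that library its log2 fold change was 0.53 (adjusted p = 0.15).

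In lipid synthesis the members split. Of 22 genes of fatty acid synthesis and desaturation 8 rose and 4 fell, with 4 that rose without chow KO 2 or 3, 5 without HFSC KO 3 and 2 without HFSC KO 4. The number that fell was 2 without chow KO 2, chow KO 3 or HFSC KO 2. Elovl5, an elongase of polyunsaturated fatty acids, rose from 8.56, 9.03 and 8.10 CPM to 21.6, 20.6 and 25.6 CPM (1.40, adjusted p = 0.00209). Mgll, monoacylglycerol lipase, rose by 1.21 (adjusted p = 0.00136). Srebf1, the regulator of lipogenesis, fell from 78.5, 61.1 and 75.7 CPM to 42.6, 38.0 and 33.9 CPM (-0.91, adjusted p = 0.00673), and Gpam, which starts glycerolipid synthesis, fell by 0.75. In the list of 36 genes of cholesterol synthesis and transport 5 rose and 4 fell, but none rose without chow KO 2 or chow KO 3, and 3, 2 and 1 rose without HFSC KO 2, 3 and 4. The synthetic enzymes Hsd17b7 (-1.92, adjusted p = 0.00535), Fdft1 (-1.02) and Lss (-0.88) fell under every alternative, and Hsd17b7 was at 17.6, 20.4 and 23.6 CPM on chow and 5.62, 5.28 and 5.32 CPM on HFSC.

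Glucose and amino acid genes changed at few steps. Tbc1d4 (AS160), which holds the glucose transporter inside the cell until insulin acts, was at 93.5, 106.5 and 93.8 CPM on chow and 51.1, 44.4 and 38.0 CPM on HFSC (-1.14, SE 0.16, adjusted p = 0.00176). Grb10, an adaptor that restrains insulin receptor signalling, rose by 0.69 (adjusted p = 0.00356). Slc2a4, the insulin-responsive transporter GLUT4, was lower in each HFSC library but did not pass (-0.55, adjusted p = 0.0828), and Irs1 did not pass (-0.73, adjusted p = 0.109). Of 28 insulin genes 5 rose and 3 fell, with 3 that rose without chow KO 2 or 3 and 1 without HFSC KO 4. The number that fell was 1 without chow KO 3, HFSC KO 3 or HFSC KO 4. Of 28 glycolysis genes 5 fell and 2 rose, with 1 that fell without chow KO 2 or 3, 2 without HFSC KO 3 or 4 and 3 without chow KO 1 or HFSC KO 2. Pdk1, a kinase that restrains pyruvate oxidation, fell by 0.84. Of 23 glycogen genes 4 fell and 2 rose, with 1 that fell without chow KO 2, chow KO 3 or HFSC KO 4, 2 without chow KO 1 or HFSC KO 3, and none that rose without chow KO 2, chow KO 3 or HFSC KO 4. Gyg, the primer of glycogen, fell by 0.97 (adjusted p = 0.00845), from 481.8, 471.1 and 500.6 CPM to 258.5, 226.0 and 257.9 CPM. Of 25 genes of branched-chain amino acid breakdown 5 fell and 1 rose, with 2 that fell without chow KO 2 or 3 and 3 without chow KO 1, HFSC KO 3 or HFSC KO 4. Ppm1k, the phosphatase that activates the pathway, fell by 0.91 and Bcat1, its cytosolic transaminase, rose by 3.67 from 0.0682, 0.160 and 0.129 CPM to 0.931, 1.38 and 2.29 CPM. In chow KO 1, 2 and 3 a level of 3 counts is 0.102, 0.12 and 0.129 CPM. Bcat1 was thus near that level on chow, and the size of its rise is imprecise.

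Most collagen, basement membrane and elastic fibre genes tested rose on HFSC. Of 27 fibrillar collagen and cross-linking genes 22 rose and none fell (median 1.89), and 17 to 22 rose without any 1 KO library. Col3a1, a fibrillar collagen of loose connective tissue (ENSMUSG00000026043, chr1:45311538-45349706), was at 141.6, 113.0 and 53.7 CPM on chow and 973.2, 1006.6 and 1210.8 CPM on HFSC. The log2 fold change was 3.37 (SE 0.53, adjusted p = 0.0027). Col1a2 rose by 2.58 and Col5a1 by 2.30. The enzymes that process collagen rose with it: Lox and Loxl2, which cross-link fibres, by 2.54 and 2.71, and Serpinh1, the collagen chaperone, by 1.91. Col1a1 was called (2.69, adjusted p = 0.0102) but not without chow KO 3 (0.0515). Outside the list, Postn, periostin, a matricellular protein of remodelling tissue, was at 17.3, 9.11 and 4.18 CPM and then 120.0, 140.6 and 221.7 CPM (3.97, SE 0.86, adjusted p = 0.00916), and Sparc, which binds collagen and is counted with the basement membrane, rose from 200.9, 186.6 and 140.8 CPM to 687.9, 771.2 and 910.4 CPM.

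The basement membrane is the sheet around fibres and capillaries. Of 27 of its genes 20 rose and none fell (median 1.77), and 17 to 20 rose without any 1 KO library. Col4a1, its network collagen, was at 73.0, 89.9 and 56.7 CPM on chow and 568.5, 669.6 and 593.5 CPM on HFSC (3.06, SE 0.33, adjusted p = 0.000649), and its partner Col4a2 rose by 2.67. Nid1, nidogen, which links laminin to collagen IV, rose by 2.20, Lamc1 by 1.15 and Lama4 by 1.45. Of 28 genes of elastic fibres and small proteoglycans 25 rose and none fell, with 15 that rose without chow KO 3. Eln, elastin, was at 23.5, 24.9 and 23.1 CPM and then 104.0, 140.7 and 141.8 CPM (2.44, SE 0.28, adjusted p = 0.000649), Fbn1, fibrillin, rose by 2.74 and Mfap4, a partner of elastic fibres, by 3.45. Of 26 matrix proteases and inhibitors 12 rose and none fell, among them Mmp2 (2.03) and Plat, tissue plasminogen activator (1.49). Timp1, an inhibitor often read as a sign of injury, was at 0.784, 0.440 and 0.129 CPM and then 2.0, 3.57 and 3.89 CPM and did not pass (adjusted p = 0.0604).

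In bulk tissue, fewer cells of a type and less RNA per cell cannot be told apart, and the same holds for more cells and more RNA. Markers of cells that make matrix were counted beside it. Of 19 markers of fibro-adipogenic progenitors, the connective tissue stem cells of muscle, 13 rose and none fell, and 9 to 14 rose without any 1 KO library. Their summed level was 603.2 to 814.4 CPM in chow KO and 1095.4 to 1427.8 CPM in HFSC KO. Pdgfra, their defining receptor, was at 14.5, 14.6 and 11 CPM on chow and 54.2, 39.5 and 51.3 CPM on HFSC (1.85, SE 0.18, adjusted p = 0.000447). Of 12 tendon markers 9 rose, with 5 without chow KO 1 and 4 without chow KO 3 or HFSC KO 4. Tnmd, tenomodulin, rose by 3.08 and Thbs4 by 1.88, while Scx, the factor that defines tendon cells, did not pass (-0.42, adjusted p = 0.366). Summed tendon markers were 129.6 to 164.0 CPM on chow and 284.7 to 489.3 CPM on HFSC. The part of cell content in the matrix result was not tested.

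Vessels were the next group. Of 24 endothelial markers 19 rose and 2 fell (median 1.07), and 14 to 17 rose without any 1 KO library. Their summed level was 606.5 to 643.0 CPM in chow KO and 1180.9 to 1342.0 CPM in HFSC KO, with no overlap. Pecam1 (CD31) was at 55.6, 50.2 and 49.0 CPM on chow and 112.2, 115.9 and 133.8 CPM on HFSC (1.22, SE 0.22, adjusted p = 0.00406). Cdh5 (VE-cadherin) rose by 1.49, Cldn5, a tight junction protein, by 2.17 and the arterial factor Sox17 by 1.23. Vwf, von Willebrand factor, fell instead, from 42.3, 30.4 and 31.1 CPM to 22, 22.6 and 16.6 CPM (-0.76, adjusted p = 0.0103, with 0.067 for library totals), and 1 endothelial gene fell without each KO library other than HFSC KO 3. Of 35 angiogenic ligands and receptors 20 rose and 4 fell (1 fell with library totals); 9 rose without chow KO 3, 10 without HFSC KO 4, 11 without chow KO 2, 12 without HFSC KO 3 and 13 without chow KO 1. Apln, the apelin peptide of growing vessel tips, was at 1.13, 1.24 and 0.862 CPM and then 9.45, 14.2 and 10.2 CPM (3.38, adjusted p = 0.00113). Pgf, placental growth factor, rose by 1.63, Angpt2, which loosens vessels, by 1.45 and Nrp1, a VEGF co-receptor, by 0.87. Fgf2, a growth factor for vessels and muscle stem cells, fell from 17.5, 15.8 and 18.1 CPM to 6.12, 5.87 and 5.72 CPM (-1.54, SE 0.15, adjusted p = 0.000447). Of 18 markers of smooth muscle and pericytes 8 rose and none fell, with 5, 3 and 4 without chow KO 2, chow KO 3 and HFSC KO 4, and Myh11 rose by 0.79. DESeq2 called 1 of these markers lower. Of the 18 markers 15 had a positive fold change (median 0.66). Their summed level went the other way, with 4718.4 to 5223.8 CPM in chow KO and 4335.2 to 4698.6 CPM in HFSC KO. That sum includes Des, which is also counted in the muscle stem cell list, so it is not a level of smooth muscle and pericytes alone. The part of single genes in it was not tested.

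Macrophages are the main resident immune cells of muscle. Of 24 macrophage and monocyte markers 14 rose and none fell (median 1.85), with 7 to 9 without chow KO 2, chow KO 3, HFSC KO 2 or HFSC KO 4. Their summed level was 67.8 to 115.4 CPM in chow KO and 313.7 to 380.2 CPM in HFSC KO. C1qa, a complement subunit of resident macrophages, was at 6.45, 5.39 and 3.83 CPM on chow and 23.7, 22 and 25.6 CPM on HFSC (2.18, SE 0.47, adjusted p = 0.00902). Csf1r, the receptor for their growth factor, rose by 1.92, Mrc1 (CD206) by 1.82 and Cx3cr1 by 3.01. Of 9 MHC class II genes 7 rose, with 4 without chow KO 2, chow KO 3, HFSC KO 2 or HFSC KO 4, and H2-Aa was at 11.2, 9.11 and 6.68 CPM and then 53.2, 44.3 and 53.9 CPM. Of 11 lymphocyte markers tested 4 rose, but none did without chow KO 2, chow KO 3 or HFSC KO 4, and 1 did without chow KO 1 or HFSC KO 3. The T cell receptor chain Cd3e did not pass (0.54, adjusted p = 0.21), and summed lymphocyte markers were 3.64 to 6.07 CPM on chow and 11.9 to 17.3 CPM on HFSC. Of 7 neutrophil and mast cell markers 1 rose, but not without any 1 KO library, and the defining genes Ly6g and Mpo were at 0 in all 6 libraries.

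Cxcr4, the chemokine receptor named in the title of the series, was at 2.90, 2.84 and 2.80 CPM on chow and 7.12, 7.83 and 11.4 CPM on HFSC. No HFSC library overlapped a chow library (1.62, SE 0.49, adjusted p = 0.0309), but the call was not kept without chow KO 1, 2 or 3 (adjusted p = 0.0744, 0.0856 and 0.0973), HFSC KO 3 (0.0552) or HFSC KO 4 (0.11). Its ligand Cxcl12 was at 74.8, 68.6 and 67.1 CPM and then 67.6, 88.0 and 59.0 CPM, with overlap (adjusted p = 0.953). Of 21 chemokines and cytokines 6 rose, with 0 to 3 without any 1 KO library and none without chow KO 3. Of 28 interferon response genes 8 rose, none did without chow KO 2, chow KO 3 or HFSC KO 4, and 5, 3 and 1 did without chow KO 1, HFSC KO 2 and HFSC KO 3. Nr6a1os, a transcript that lies within Nr6a1 on the opposite strand and ends just before the deleted cluster, was at 2.52, 2.52 and 1.42 CPM on chow and 1.0, 0.656 and 1.0 CPM on HFSC (-1.28, adjusted p = 0.0214, and 0.0724 without HFSC KO 3). The strand setting of the counting is not given in the sources used here, so its reads and those of Nr6a1 cannot be told apart.

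Cell cycle genes were counted as a sign of dividing cells of any type. Of 34 cell cycle genes 19 rose and 2 fell (median 1.31), with 9 that rose without chow KO 3 and 12 without HFSC KO 4, and 1 that fell without any 1 KO library other than chow KO 1. Mki67, the proliferation antigen, was at 0.648, 0.799 and 0.603 CPM on chow and 4.12, 6.49 and 9.97 CPM on HFSC (3.32, SE 0.69, adjusted p = 0.00743), and Top2a rose by 3.59. Mki67 was thus read at a low level in every KO library. The inhibitors Cdkn1a (p21) and Cdkn1c (p57) rose too, Cdkn1a from 32.5, 14.4 and 8.10 CPM to 81.0, 142.0 and 78.5 CPM (2.45, adjusted p = 0.00673). Cdkn1c (1.46) is itself 1 of the 19, so that count is not of genes that promote division alone. The 2 members that fell were Cdkn2c (-0.85, adjusted p = 0.0102) and Aurka (-1.35, adjusted p = 0.0289).

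**Figure D4:**
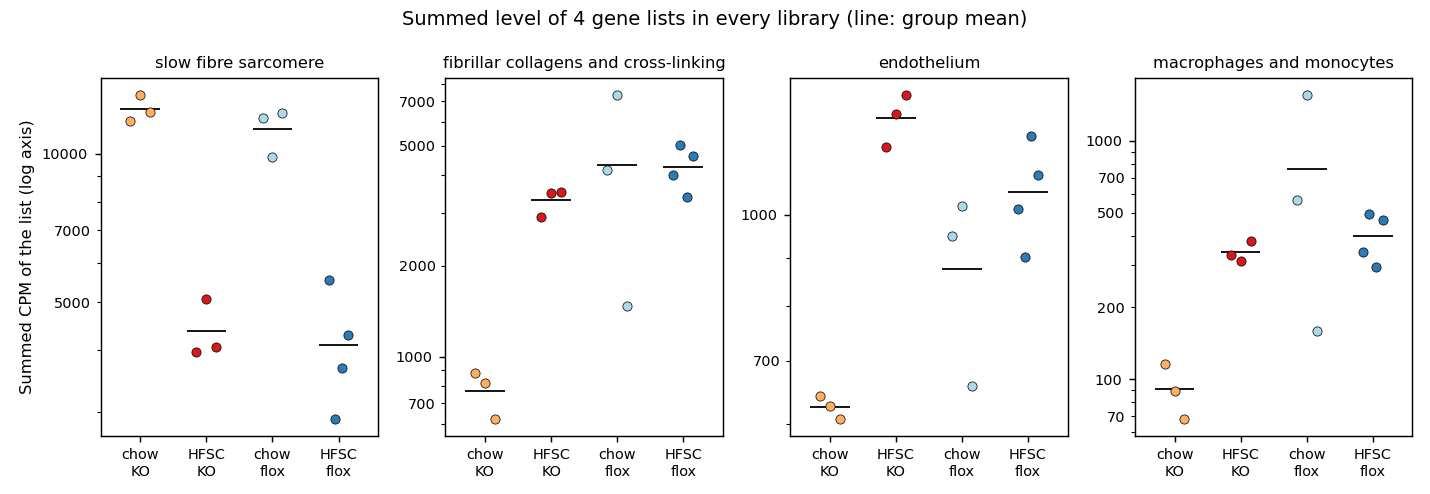
The summed CPM (log axis) of the slow fibre, fibrillar collagen, endothelial and macrophage lists is plotted per library in the 4 groups, with a line at each group mean. In KO muscle the diets do not overlap in any panel; chow flox 4 lies nearer to the chow KO libraries than chow flox 2 and 3 do for collagens, endothelium and macrophages.

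Markers of other tissues were checked beside these results. Of 19 adipocyte markers 9 rose and 1 fell, and 18 had a positive fold change (median 1.16). Their summed level, 3075.0 to 3874.9 CPM on chow and 3551.9 to 4977.2 CPM on HFSC, overlapped. The list holds genes that other cells also make, such as Fabp4, so the overlap of these sums does not measure fat content. Cidec, a lipid droplet protein, rose by 1.61 and Pparg, the master regulator of fat cells, by 1.41. Adipoq, the defining adipokine, was at 12.7, 7.11 and 7.2 CPM and then 17.0, 14.8 and 30.7 CPM (1.21, adjusted p = 0.0292), and lost the call without chow KO 2 (0.101), chow KO 3 (0.111) or HFSC KO 4 (0.142). Of 16 Schwann cell markers 1 rose and 1 fell, and their sums overlapped (139.6 to 348.1 and 171.3 to 227.8 CPM). Of 7 red cell genes 5 rose, with 2 without chow KO 2, HFSC KO 3 or HFSC KO 4 and 3 without chow KO 3. Hbb-bs, a beta globin, was at 38.4, 30.1 and 44.9 CPM and then 61.7, 67.3 and 82.5 CPM (0.90, adjusted p = 0.00758), a gene with near-identical copies. Of 5 keratinocyte genes 1 rose (none without any 1 KO library other than HFSC KO 2), and Krt1 and Krt17 were at 0 in every KO library. Of 7 cardiac markers 4 rose (1 or 2 without any 1 KO library other than HFSC KO 2), Tnni3 by 1.66 among them, while Myl7 was at 0 and Myh6 did not pass (-0.18, adjusted p = 0.673). The part of these other cells in the gene results was not tested.

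Immediate early genes are switched on quickly by activity and stress. Of 28 immediate early genes 11 rose and none fell (median 0.80), with 6 without HFSC KO 4. Nr4a3, an orphan receptor induced by exercise and adrenergic signals, had the largest rise among genes at 5 CPM or more: 1.88, 3.68 and 5.08 CPM on chow and 16.9, 118.5 and 50.4 CPM on HFSC (4.14, SE 0.68, adjusted p = 0.00295). Atf3, a stress-induced repressor, went from 4.81, 3.12 and 8.10 CPM to 42.0, 64.9 and 52.6 CPM (3.32, adjusted p = 0.00158). Fos and Egr1 did not pass (adjusted p = 0.0685 and 0.906), and Egr1 overlapped, with chow KO 1 at 20.7 CPM its highest library. Of 29 genes of the integrated and ER stress response 9 rose and 2 fell, with 5 that rose without chow KO 2 or 3 and 1 that fell without HFSC KO 4. The ER chaperone Hspa5 (BiP) was at 166.8, 173.2 and 178.4 CPM and then 253.3, 250.4 and 255.7 CPM (0.55, SE 0.09, adjusted p = 0.00356), and Pdia6 (0.67), Xbp1 (0.55) and Manf (0.83) rose with it. Ddit3 (CHOP), the factor of terminal ER stress, fell by 0.70 (adjusted p = 0.0121, and 0.123 with library totals).

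Of 30 atrophy, FoxO and autophagy genes 7 rose and 1 fell, and when 1 KO library was left out the latter was called only in the fit without chow KO 1. The metallothioneins Mt2 and Mt1, small metal-binding proteins induced by stress and glucocorticoids, rose most: Mt2 was at 2.66, 8.75 and 4.05 CPM on chow and 33.8, 53.0 and 50.7 CPM on HFSC (3.16, SE 0.53, adjusted p = 0.00328), and Mt1 rose by 2.09. Trim63 (MuRF1), a ubiquitin ligase of the sarcomere, rose by 1.27 (adjusted p = 0.0186, and 0.0773 without HFSC KO 4), and Fbxo32 (atrogin-1), the other classical ligase of atrophy, did not pass (-0.45, adjusted p = 0.256). Of 20 glucocorticoid response genes 9 rose, with 4 without chow KO 1, chow KO 3 or HFSC KO 4. In the antioxidant list 5 of 29 fell and 3 rose, with 2 that fell without chow KO 2, chow KO 3, HFSC KO 2 or HFSC KO 4. Nqo1, a target of the Nrf2 factor, fell from 30.2, 34.1 and 28.8 CPM to 8.70, 5.18 and 8.07 CPM (-2.09, adjusted p = 0.0038). Nnt, the mitochondrial transhydrogenase that makes NADPH, fell by 1.35 on the log2 scale with no overlap (SE 0.17, adjusted p = 0.000945), and Ucp2, a mitochondrial carrier abundant in immune cells, rose by 2.22.

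Secreted muscle signals changed in 12 of 21 tested myokine genes, 11 upward and 1 downward, with 8 to 10 that rose without any 1 KO library. Several of the 11, such as Sparc, Dcn and Fstl1, are also made by connective tissue. Ostn (musclin), a peptide secreted by muscle, was the one that fell: 61.4, 46.4 and 65.4 CPM on chow and 7.52, 2.23 and 5.29 CPM on HFSC (-3.53, SE 0.73, adjusted p = 0.00743). Erfe (myonectin or erythroferrone) rose from 0.136, 0.280 and 0.345 CPM to 4.01, 1.80 and 4.22 CPM (3.73, adjusted p = 0.000649). Mstn, myostatin, the brake on muscle growth, was at 78.8, 98.7 and 112.9 CPM and then 35.9, 17.6 and 39.1 CPM; its groups did not overlap, but it did not pass (-1.65, SE 0.69, adjusted p = 0.0939).

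The IGF axis drives muscle growth, and imprinted genes are read from 1 parental copy. Of 26 genes of the IGF axis and imprinted loci 18 rose and 2 fell (median 1.45), with 14 to 17 that rose without any 1 KO library and none that fell without chow KO 1, chow KO 2, HFSC KO 2 or HFSC KO 4. Igf1 was at 20, 12.7 and 12.4 CPM on chow and 47.2, 37.3 and 50.1 CPM on HFSC (1.58, SE 0.32, adjusted p = 0.00631), and the binding proteins Igfbp4 and Igfbp7 rose by 1.61 and 1.64. The imprinted genes Plagl1 (2.61), Dlk1 (2.48), Rian (2.18) and Mest (1.96) rose. H19 did not pass (0.56, adjusted p = 0.115). The 2 that fell were Igfals (-1.03, adjusted p = 0.0272) and the receptor Igf1r (-0.37, adjusted p = 0.0396), the latter not called with library totals. Of 18 YAP target and CCN genes 8 rose and 2 fell, with 5 that rose without HFSC KO 4 and 1 that fell without any 1 KO library other than HFSC KO 3; Ccn1 went from 30.7, 24.9 and 23.8 CPM to 85.5, 72.6 and 63.6 CPM (1.48, SE 0.20, adjusted p = 0.00155) and Crim1 fell by 1.23. Of 36 BMP, TGF-beta and Wnt genes 9 rose and 7 fell, among them the R-spondin Rspo3, which fell from 5.29, 5.31 and 5.39 CPM to 1.36, 2.43 and 1.32 CPM (-1.64, adjusted p = 0.00184). Without any 1 KO library 3 to 5 of these genes rose, and 3 fell without chow KO 3 or HFSC KO 4 and 4 without chow KO 1, chow KO 2 or HFSC KO 2. Of 23 FGF ligands and receptors 7 rose and 1 fell, with 2 that rose without chow KO 2 or 3, 3 without HFSC KO 3 and 4 without HFSC KO 4.

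Of 33 Hox and related position genes tested 7 fell and 1 rose, with 2 that fell without chow KO 3 or HFSC KO 4 and 4 without chow KO 1 or 2, and none that rose without any 1 KO library other than HFSC KO 4. The member that rose was Tbx4 (0.79, adjusted p = 0.0317). These genes keep a code of position along the limb. Hoxc10, of the hindlimb, was at 91.2, 85.3 and 100.5 CPM on chow and 48.6, 54.0 and 31.9 CPM on HFSC (-1.04, SE 0.24, adjusted p = 0.0111), and Emx2, a homeobox factor, was at 1.5, 1.72 and 1.29 CPM and then 0.143, 0.229 and 0.214 CPM. Since the labels name no muscle, diet and the piece of muscle taken cannot be told apart. Of 18 xenobiotic genes 7 fell and 3 rose, with 3 that fell without chow KO 2 and 4 without chow KO 1, chow KO 3 or HFSC KO 4. The number that rose was 1 without chow KO 2, chow KO 3 or HFSC KO 4. Cyp1b1, an enzyme induced through the aryl hydrocarbon receptor and present in vessel and connective tissue cells, was at 1.06, 1.16 and 0.689 CPM and then 12.7, 13 and 16.5 CPM (3.85, SE 0.39, adjusted p = 0.00046), and Cyp2e1, an adipocyte and liver enzyme, fell by 2.59 (adjusted p = 0.000854).

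Some of the largest changes lay outside these groups. Rasd2 (Rhes), a small GTPase, fell furthest among genes at 5 CPM or more, from 146.8, 91.8 and 146.9 CPM to 4.58, 9.73 and 2.97 CPM (-4.47, SE 1.06, adjusted p = 0.0127). Its adjusted p was 0.0542 without HFSC KO 4 and 0.0515 with no filter on low counts. Htra4, a serine protease, fell by 3.71 (SE 0.66, adjusted p = 0.00409). Stc1, the hormone stanniocalcin, rose by 3.37 (adjusted p = 0.00295). Dach2 (-3.64, adjusted p = 0.0281), Neto2 (-3.48, adjusted p = 0.0387) and C1qtnf3 (3.46, adjusted p = 0.0344) had SEs of 1.07, 1.11 and 1.07, and without HFSC KO 4 their adjusted p was 0.0952, 0.0975 and 0.115. Amd1, which makes the donor for polyamine synthesis, fell from 867.4, 1333.2 and 1779.1 CPM to 240.5, 147.5 and 195.0 CPM (-2.77, SE 0.81, adjusted p = 0.0272), with 0.087 without chow KO 3. Eef1a1, the general translation elongation factor, rose by 1.32 (adjusted p = 0.0115, and 0.0571 without chow KO 3), and the nuclear RNA Malat1 by 0.54 (adjusted p = 0.0403, and 0.132 without HFSC KO 4).

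Large housekeeping groups had few calls. None of 13 mitochondrially encoded protein genes passed in edgeR on all 13 libraries or in DESeq2, and 0 had an unadjusted p under 0.05 in edgeR. With only the KO libraries in the edgeR fit, 1 was called lower. Of 75 nuclear respiratory chain genes 9 rose and 1 fell, 2 rose without chow KO 1, chow KO 3, HFSC KO 2 or HFSC KO 4, and 58 rose with library totals. Of the 75, 70 had a positive fold change; their median was 0.24 with TMM (0.02 over all genes) and 0.43 with library totals (0.21 over all genes). Of 21 TCA cycle genes 1 rose (none without any 1 KO library) and 2 fell, and 13 rose with library totals. Idh2, the mitochondrial NADP isocitrate dehydrogenase, went from 517.7, 615.4 and 466.1 CPM to 287.5, 239.3 and 280.4 CPM (-0.99, SE 0.17, adjusted p = 0.00388). Of 77 cytosolic ribosomal proteins 2 rose and 2 fell, with none that rose without chow KO 2, chow KO 3, HFSC KO 3 or HFSC KO 4 and none that fell without any 1 KO library other than chow KO 2. Of 77 mitochondrial ones 6 rose (none without chow KO 1, chow KO 3 or HFSC KO 4, 1 without HFSC KO 2 and 2 without chow KO 2). None of 37 proteasome genes passed in edgeR with TMM on all 13 libraries (8 had an unadjusted p under 0.05, and DESeq2 called 2 higher and 3 lower). With only the KO libraries in the edgeR fit 4 proteasome genes were called higher and 4 lower, and with library totals 2 were called higher. Of 32 heat shock and chaperone genes 3 rose and 2 fell, with 1 that rose without chow KO 2, chow KO 3 or HFSC KO 4, none that fell without any 1 chow KO library or HFSC KO 4, and 4 that fell without HFSC KO 3.

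Set side by side, the same diet contrast in flox muscle gave 69 calls (0.418% of tested genes, 19 higher and 50 lower), 46 of which were called in the same direction in KO. DESeq2 called 392 in flox (2.38%). These contrasts share no library. The slow fibre list fell in both: 10 members were called lower in flox, Myh7 at -3.42 (adjusted p = 0.00273) and Tpm3 at -2.56 (adjusted p = 7.02e-05). Per2 (-1.79), Arntl (1.87), Ccn1 (1.68), Rspo3 (-1.95) and Erfe (1.97) were called in flox with the sign they had in KO. Col3a1 (0.07), C1qa (-0.54) and Pecam1 (0.21) did not pass in flox. The chow flox libraries were far apart: summed fibrillar collagens were 4135.3, 7366.9 and 1467.8 CPM in chow flox 2, 3 and 4, and 3380.9 to 5030.3 CPM over the 4 HFSC flox libraries. Summed macrophage markers were 562.3, 1560.8 and 159.3 CPM in chow flox and 297.0 to 491.8 CPM in HFSC flox.

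The test of the difference between the diet effects, KO minus flox, called 0 genes with edgeR (0.0%, smallest adjusted p 0.0625), and 4811 genes (29.2%) had an unadjusted p under 0.05. DESeq2 called 2025 (12.3%) and limma voom with quality weights 7061 (42.8%), and edgeR called 5928 without chow flox 4. The quality weights were 6.256, 0.457 and 0.172 for chow flox 2, 3 and 4, so chow flox 2 dominated its group in the voom fit. No gene is therefore described as changed in KO alone. The genes with the smallest p in this test, counting those that averaged 5 CPM or more in a KO group, were Sox17, Hspa12b, Prkd1, Scara5, Sult5a1 and Sema3g. Sox17 was at 9.31, 12 and 9.26 CPM in chow KO and 22.7, 22.1 and 27.1 CPM in HFSC KO. In flox it was at 15.9 to 16.9 CPM on chow and 9.83 to 15.2 CPM on HFSC (unadjusted p of the difference 5.2e-06). Hspa12b, an endothelial chaperone of the heat shock family, was at 18.5, 19.9 and 18.7 CPM and then 35.1, 39.9 and 40.8 CPM in KO, and at 19.7 to 24.2 and 23.0 to 25.1 CPM in flox. Of the 4201 genes called in KO, 2971 had an unadjusted p under 0.05 for the difference. The KO contrast is part of this difference, so genes picked for a large KO change tend to a small p here. The 2971 therefore carry no support for a difference.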

How the data were processed

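RNA of 13 mouse skeletal muscle libraries was poly(A) selected and sequenced, per the labels. The authors deposited raw counts of reads per gene. The submitters' processing notes name Trimmomatic 0.36, STAR 2.5.2b, featureCounts (Subread 1.5.2) and GRCm38. Annotation release, strand setting and treatment of reads with several matches: not given in the sources used here. Of 49315 gene rows, 49056 matched GENCODE M21, the source of the names and coordinates.

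Counts were fitted in R 4.3.3 with edgeR 4.0.16 (TMM, low-count filter, robust quasi-likelihood test) on all 13 libraries as 4 group means, with 9 residual degrees of freedom and a common biological coefficient of variation of 22.3%. This left 16496 genes, with Benjamini-Hochberg adjustment at 0.05 over all of them. Every p-value and adjusted p comes from this fit unless another is named. Levels are CPM on TMM-scaled totals. The log2 CPM in the principal component analysis used a prior count of 2, which does not apply to the log2 fold changes. Alternatives used limma 3.58.1 and DESeq2 1.42.0. Only the edgeR fit was tested on simulated counts with known changes.

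Genes were named by a rule: the 10 largest fold changes and 8 largest CPM differences per direction (at least 5 CPM, no overlap), 3 called members per list and direction, the locus genes with Cxcr4, and the 6 smallest interaction p-values. Members, lists and rule were chosen with earlier results of these data known. Replicate numbers were not treated as pairs, since the KO groups share only numbers 2 and 3. Some genes that the rule names are not reported here.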

Additional observations from a re-analysis of the deposited data

Results flagged for a closer look

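Of 29 quantities checked in the group of 4 HFSC flox libraries, 1 had a library far from the others. C1qa was at 29.7 CPM in HFSC flox 2, and the other HFSC flox libraries were at 20.3, 21 and 21.1 CPM. Chance alone sets a library apart in about 1 in 20 such groups. The KO groups of 3 libraries were not checked in this way. With edgeR as fitted in the report, no interaction between diet and genotype passed for a named gene (adjusted p = 0.0625 for Sox17 and Hspa12b). Under some alternatives it did: the adjusted p for Sox17 was 4.47e-07 with DESeq2, 0.000305 with limma voom and 0.000487 in edgeR without chow flox 4. Over all alternatives it went up to 0.18, and the voom fit gave chow flox 2 the largest weight in its group.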

How the results depend on the processing

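The 4201 calls of the KO contrast became 4275 with DESeq2's size factors in edgeR, 3453 with library totals, 3180 with no low-count filter (32648 genes), 5651 with only the KO libraries in the fit and 5273 with DESeq2. They became 7116 with limma voom and quality weights, and leaving out 1 library gave 1459 (without chow KO 3) to 6112 (without chow flox 4). With the replicate block the count was 2382. The block is not supported as a pairing: same-numbered KO libraries correlated at 0.042 (number 2) and -0.153 (number 3), and differently numbered ones at -0.142 to 0.194. The 69 flox calls became 4 with only the flox libraries, 392 with DESeq2, 4145 with voom and 15 (without chow flox 2) to 1456 (without chow flox 4) with 1 library left out. With the replicate block, 51 flox genes and 0 interaction genes were called. The interaction count of 0 became 161 with no filter, 2025 with DESeq2, 7061 with voom and 0 to 5928 with 1 library left out (2 without HFSC flox 4, 5928 without chow flox 4). In voom the quality weights were 6.256 for chow flox 2 and 0.457 and 0.172 for chow flox 3 and 4. The causes were not tested. Of 232 named genes called in KO, 132 kept the call under every alternative run, 100 lost it in at least 1 and 0 reversed. With 3 libraries a group, precision of genes under 1 CPM is limited by counting.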

Other observations

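Several proteins exist in a general form and a form made mainly in striated muscle, and the forms differed in how they moved in KO muscle. Of 13 such pairs, chosen after their values were seen and so given with no test, the general form rose in 11 and fell in 1, and the muscle form rose in 0 and fell in 2. Over all tested genes 14.9% rose and 10.6% fell. Eef1a1, the general elongation factor, had a log2 fold change of 1.32 and its muscle and neuron form Eef1a2 one of -0.49, which did not pass. Hexokinase gave 1.28 for Hk1 and -0.29 for Hk2. Enolase gave 0.89 for Eno1 and 0.07 for Eno3, and the ribosomal protein pair gave 0.97 for Rpl3 and 0.00 for Rpl3l. In cytochrome oxidase, Cox6a1 was at 0.91 while the heart and muscle form Cox6a2 fell by 0.70 (edgeR adjusted p = 0.0213). AMP deaminase gave 1.10 for Ampd3, and the muscle form Ampd1 fell by 0.87 (adjusted p = 0.0459). Glycogen phosphorylase gave 1.25 for Pygl and -0.65 for Pygm. The calcium pump was the pair in which the more general form fell, with -2.70 for Atp2a2 and -0.46 for Atp2a1. Not every other pair showed the difference. Cox7a2 (0.31) lay below its muscle form Cox7a1 (0.54), and neither passed. Pgam1 rose by 0.86 and its muscle form Pgam2 was also positive (0.36), without passing. Cells between the fibres also make the general forms, and their markers were higher on HFSC, as given above; their part was not tested.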
